A study of Mus musculus with 10 samples.

Results

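Translation elongation factors were examined as 5 genes, Eef1a1, Eef1b2, Eef1d, Eef1g and Eef2, among the 13272 genes with a kept read. They were chosen by name as classic mRNAs with a 5′-terminal oligopyrimidine (TOP) motif. Alignments to their mRNAs were kept where the tail had passed quality control (tag PASS), which gave 35275. All 5 passed the read minimum of every test, so that no member was lost to a filter on low values.

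The cells were wild-type P19, a mouse embryonal carcinoma line that is pluripotent and was kept undifferentiated in this experiment. They were transfected with a pool of scrambled siRNAs (siCtl) or with siRNA against Larp1 (siLarp1), and the 48 h cells received the same siRNA again at 24 h. Native RNA was sequenced on Nanopore flow cells, and the poly(A) tail of each molecule was estimated from its signal. The groups comprised 3 siCtl and 3 siLarp1 libraries at 24 h (numbered 19, 21 and 22 in both treatments) and 2 siCtl and 2 siLarp1 libraries at 48 h (numbered 24 and 25), which the study's methods describe as biological replicates. These numbers serve as names here and pair no libraries, since the sources used here do not tie them to replicate labels.

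Elongation factors carry the ribosome along the coding sequence. eEF1A, encoded by Eef1a1, delivers aminoacyl-tRNA to the ribosome as a GTPase, and the eEF1B complex of Eef1b2, Eef1d and Eef1g products recharges it with GTP. eEF2, encoded by Eef2, is the GTPase that moves the ribosome by 1 codon after each peptide bond. The mRNAs of these proteins begin with a cytidine followed by a run of pyrimidines, the TOP motif, which LARP1 binds at the cap. LARP1 is known to hold TOP mRNAs in a stable, translationally controlled state and to protect their tails.

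The genome sequence at the start of each mRNA shows the pyrimidine run that defines this class. Shown 5′ to 3′ on the strand of the gene (GENCODE transcripts, GRCm38/mm10) are the 30 bases before the most common aligned start of the reads, or 27 where the annotated transcript begins closer. Nanopore reads stop short of the cap, so that the true mRNA start lies within or near this window. Capitals mark a C followed by at least 4 pyrimidines. The windows lie in exon 1, in the 5′ UTR, at chr9:78481659-78481688 (minus strand, Eef1a1), chr1:63177112-63177141 (plus, Eef1b2), chr15:75909296-75909325 (minus, Eef1d), chr19:8967182-8967211 (plus, Eef1g) and chr10:81176631-81176657 (plus, Eef2).
Eef1a1: cagtcgccttggacgttCTTTTTCgcaacg
Eef1b2: ttccggacgctctgggtCCTTTTTTTCCCT
Eef1d: agctgcgcgggcgCCCTCCCTCTCCTTTgc
Eef1g: acagccccaCCCCCTTTCTCTgcggaatca
Eef2: gttgacgtcagcggtCTCTTCCgccgc
The marked run ended 0 bases (Eef1b2) to 9 bases (Eef1g) before the aligned start. Such a run, searched only on the strand of the transcript, was present in 41.1% of 1934 genes with at least 100 reads and a full window, and in 64 of 64 ribosomal protein (RP) genes. The longest stretch of pyrimidines, which overlaps the marked run, was 9 bases in Eef1a1, 14 in Eef1b2, 15 in Eef1d, 12 in Eef1g and 8 in Eef2. A stretch of 8 or more was present in 15.2% of the 1934 genes and in 90.6% of the RP genes.

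The other end of the mRNA is where the measured tail begins. Shown are the last 30 aligned bases at the most common 3′ end of each main transcript, with the polyadenylation signal AATAAA or its variant ATTAAA in capitals. These lie in the last exon, in the 3′ UTR, at chr9:78478453-78478482 (minus, Eef1a1), chr1:63179627-63179656 (plus, Eef1b2), chr15:75895488-75895517 (minus, Eef1d), chr19:8978153-8978182 (plus, Eef1g) and chr10:81182469-81182498 (plus, Eef2).
Eef1a1: tgagaccATTAAAacaagtttaatgagaaa
Eef1b2: agtgcacttaAATAAAagcttgaaagataa
Eef1d: cctgctgagATTAAAgactgagactctgca
Eef1g: gggggtcATTAAAgaaaactgaacattgaa
Eef2: ggagtAATAAActacagtggttgatccaca
Eef1a1, Eef1d and Eef1g held ATTAAA, and Eef1b2 and Eef2 held AATAAA. Either signal was present in the last 30 bases of 82.7% of the 1934 genes, and AATAAA in 67.3%.

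Most reads ended at these positions. The share of main-transcript reads whose last aligned base was within 20 nt of the shown end was 95.6% in Eef1a1, 96.8% in Eef1b2, 93.7% in Eef1d, 95.9% in Eef1g and 88.7% in Eef2. Eef1b2 and Eef1d used an end 830 and 1283 bases inside the annotated one, Eef1g one 297 bases inside, and Eef1a1 and Eef2 ended within 4 bases of it. Reads that reached the shown start were 64.1% of Eef1a1, 86.1% of Eef1b2, 75.1% of Eef1d and 64.7% of Eef1g, but 8.91% of the 3089-nt Eef2, whose reads had a median aligned length of 1506 nt. Sequencing runs from the tail toward the cap, so a read that stops early still carries a tail estimate. Reads of Eef1a1 that reached the start had a median tail of 112 nt and those that stopped early 106 nt.

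**Figure D1:**
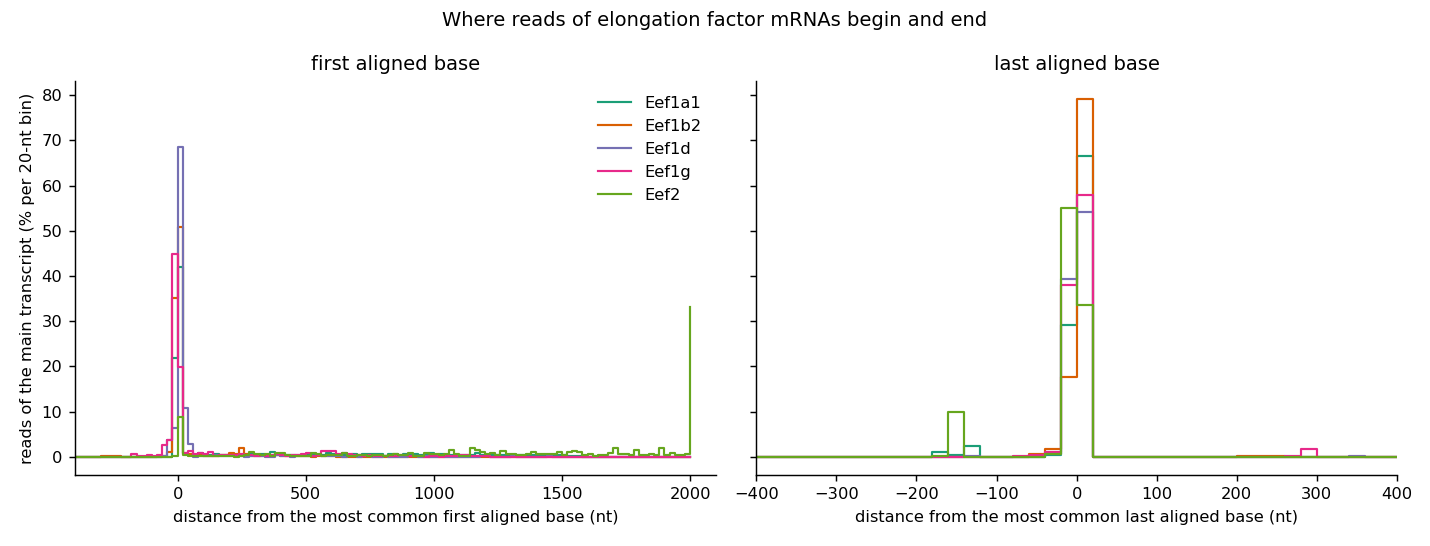
Share of main-transcript reads (%, bins of 20 nt) by the distance in nt of their aligned start and end from the most common one, for the 5 elongation factor mRNAs over all libraries. Starts at 2000 nt or more are in the last bin. The axis of ends is cut, so that distant ends, such as 4.78% of Eef1d reads in the bin at 680 nt, are not drawn. The main end is sharp in all 5 mRNAs, and Eef2 has a further 10.0% of ends in the bin at -160 nt. Starts are sharp in 4 mRNAs and spread along the transcript in Eef2.

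Eef1a1 and Eef2 reads fell on 1 annotated transcript each, Eef1b2 on 3, Eef1d on 9 and Eef1g on 2. The main transcripts were ENSMUST00000042235.14 of Eef1a1 (chr9:78478449-78481724, 8 exons), ENSMUST00000129339.7 of Eef1b2 (chr1:63176825-63180486, 96.0% of its reads), ENSMUST00000154584.8 of Eef1d (chr15:75894205-75909355, 75.7%), ENSMUST00000052248.7 of Eef1g (chr19:8967041-8978479, 87.5%) and ENSMUST00000047864.10 of Eef2 (chr10:81176631-81182498, 14 exons). A retained-intron transcript of Eef1g took 547 reads, 99.5% of them with a mapping quality of 0, so its reads cannot be told apart from those of the main form. Counts were therefore summed per gene.

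The libraries held 112720 to 423398 kept alignments, and every siLarp1 library at 24 h was shallower than every siCtl library at 24 h. At 24 h siCtl and siLarp1 were sequenced as separate pools, so that treatment, depth and pool cannot be told apart at that time. The 48 h libraries shared 1 pool. Larp1 had 22, 29 and 36 reads in siCtl at 24 h (75.9 to 85.0 RPM, reads per 1000000 kept alignments) and 4, 6 and 3 in siLarp1 (19.1 to 44.9 RPM). At 48 h it had 19 and 22 reads in siCtl and 3 and 3 in siLarp1. The groups did not overlap at either time, with log2 fold changes of -1.34 ± 0.43 (SE) and -2.52 ± 0.56, whose limma adjusted p over all genes were 0.827 and 0.252. The study reported reduced LARP1 protein after siLarp1 by Western blot, which is not part of these data. All 8 embryonal carcinoma markers were read in all 10 libraries (Pou5f1, 2277 to 3028 RPM), with a summed level of 3201 to 4325 RPM. The 4 neuron, 4 endoderm and 4 fibroblast markers summed to 26.6 to 87.1, 0 to 6.37 and 0 to 43.6 RPM. Neurod1, Sox17, Afp and Pdgfrb were at 0 in every library, but Tubb3 was read in all 10 (26.6 to 81.3 RPM) and Thy1 in 8. The median of Tubb3, 41.7 RPM, was above those of the embryonal carcinoma markers Sall4 (15.8 RPM) and Dppa4 (32.0 RPM).

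Eef1a1 was the most abundant member in all 10 libraries and Eef1d the least. Over all libraries Eef1a1 gave 21461 reads and ranked 2 among the 13272 genes with a kept read. Eef1g gave 4382 (rank 104), Eef1b2 4323 (rank 106), Eef2 3726 (rank 112) and Eef1d 1383 (rank 204). Transcripts of the mitochondrial genome and pseudogenes were left out of this ranking. A direct RNA read stands for 1 molecule, so these levels, in RPM, are not divided by transcript length. Eef1b2 exceeded Eef1g in 7 of 10 libraries and Eef2 in 9 of 10, and these 3 neighbours were within the spread between libraries. RNA per cell and number of cells cannot be told apart in such bulk libraries.

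Tail lengths set the members apart from each other. The median tail over all libraries was 109 nt in Eef1a1, 99.1 nt in Eef2, 96.7 nt in Eef1g, 91.1 nt in Eef1d and 85.5 nt in Eef1b2. Among 563 genes with at least 500 reads, 82.6% had a shorter median than Eef1a1 and 3.20% a shorter one than Eef1b2. Eef1a1 had the longest median of the 5 in 9 of 10 libraries and Eef1b2 the shortest in 8. Eef2 exceeded Eef1g in 7 libraries, and Eef1g exceeded Eef1d in 7, so that these neighbours were not separated beyond the spread. The middle 50% of Eef1a1 tails spanned 79.8 to 140 nt, and that of Eef1b2 tails 53.1 to 123 nt.

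**Figure D2:**
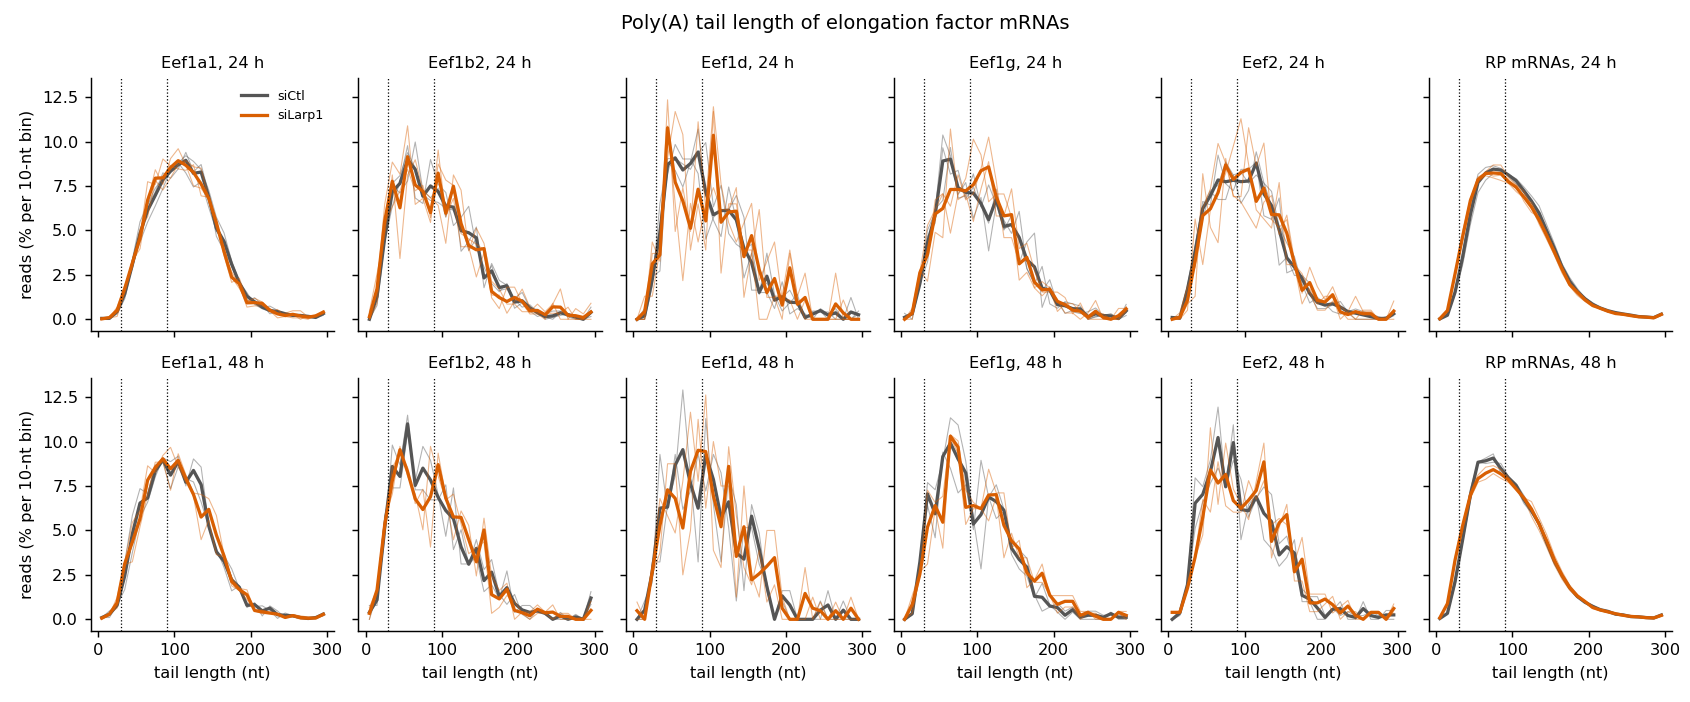
Distribution of tail lengths (nt, bins of 10 nt; tails of 300 nt or more are in the last bin) of the 5 mRNAs and of pooled ribosomal protein (RP) mRNAs, as percent of reads. Thin lines are libraries, thick lines group means, and dotted lines stand at 30 and 90 nt. The highest bin of the group means starts at 80 to 110 nt in Eef1a1 and at 40 to 50 nt in Eef1b2.

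The share of tails under 30 nt, called the <30-nt class in the study, ordered the members in the opposite way. Over all libraries it was 6.45% in Eef1b2, 2.89% in Eef1d, 2.81% in Eef1g, 1.91% in Eef2 and 0.736% in Eef1a1. Of the 563 genes, 95.7% had a lower share than Eef1b2 and 7.10% a lower share than Eef1a1. Eef1b2 was highest and Eef1a1 lowest in 10 of 10 libraries, and Eef1g exceeded Eef2 in 10 of 10. Eef1d exceeded Eef1g in 4 libraries and was exceeded in 6. Eef1b2 also stood above pooled RP mRNAs in 10 of 10 libraries, Eef1d and Eef1g in 7, Eef2 in 2 and Eef1a1 in 0.

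The comparison of siLarp1 with siCtl asks whether loss of LARP1 moved elongation factor mRNAs to short tails. None of the 5 members passed the threshold (adjusted p under 0.05) for the <30-nt class at either time. Across all genes, 28 of 1388 were called at 24 h (2.02%), all of them higher in siLarp1 and 27 of them RP genes, and 7 of 823 at 48 h (0.851%), all RP genes. Of the 79 RP genes, 27 and 7 thus rose at 24 h and 48 h, with median differences in log2 odds of 0.87 and 0.92. These calls depended on single libraries. The 28 calls at 24 h became 0 without siCtl library 19 or 21, 6 to 10 without siCtl library 22 or siLarp1 library 19 or 22, and 20 without siLarp1 library 21. The 7 calls at 48 h became 0 without any 1 of the 4 libraries, and both counts were 0 with the library number as a replicate block. The median difference was 0.31 in the members and 0.38 in genes with a finite estimate at 24 h, and 0.18 and 0.46 at 48 h. These medians leave out 209 of 1388 and 117 of 823 genes without a finite estimate. Ranked from the lowest among all tested genes, members stood at 26.7% (Eef2) to 61.0% (Eef1d) at 24 h. At 48 h they stood at 32.1% (Eef1g) to 42.8% (Eef1a1). P-values measure the spread between these libraries, which may be partly technical. In the logistic model of tail shares, this spread was not allowed below counting error. Its p-values and intervals can therefore reflect counting error of the pooled reads alone. Intervals on single libraries cover counting error only.

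Eef1b2, the nucleotide exchange subunit with the shortest tails, had 33 of 645, 45 of 732 and 58 of 928 reads under 30 nt in siCtl libraries 19, 21 and 22 at 24 h (5.12, 6.15 and 6.25%). In siLarp1 it had 18 of 234, 24 of 294 and 21 of 332 (7.69, 8.16 and 6.33%). Each siLarp1 library was above each siCtl library, although the lowest siLarp1 value was 6.33% and the highest siCtl value 6.25%. The means were 5.84 ± 0.627% (SD, n = 3) and 7.39 ± 0.955% (n = 3), an exact permutation p of 0.1, which is the smallest this design allows. The difference in log2 odds, siLarp1 minus siCtl, was 0.33 (95% interval -0.13 to 0.79, adjusted p = 0.645). At 48 h siCtl had 7.39 and 5.88% and siLarp1 8.05 and 6.50%, which overlapped, and the difference was 0.19 (-0.52 to 0.89, adjusted p = 0.851). Of the 5 members, only Eef1b2 at 24 h had groups that did not overlap, against 11.7% of 1433 genes at 24 h and 36.2% of 843 genes at 48 h.

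Eef1a1, whose product carries aminoacyl-tRNA, rarely had a short tail. In siCtl at 24 h, 19 of 3216, 16 of 4076 and 26 of 4179 reads were under 30 nt (0.591, 0.393 and 0.622%), and in siLarp1 3 of 1253, 12 of 1438 and 11 of 1458 (0.239, 0.834 and 0.754%). The siLarp1 libraries lay on both sides of the siCtl ones. The means of 0.535 ± 0.125% and 0.609 ± 0.323% (SD, n = 3 each) gave an exact permutation p of 0.7, and the difference in log2 odds was 0.24 (-0.47 to 0.94). At 48 h the values were 1.32 and 1.01% in siCtl and 1.62 and 0.947% in siLarp1, with a difference of 0.24 (-0.49 to 0.97). Although Eef1a1 had the most reads of the members, these intervals include the RP median of 0.87 at 24 h and of 0.92 at 48 h.

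Eef1d and Eef1g encode the remaining eEF1B subunits, a further exchange factor and a structural subunit. Eef1d had 1.86, 2.46 and 3.01% of reads under 30 nt in siCtl at 24 h and 2.60, 3.70 and 4.35% in siLarp1, from 2 to 10 reads per library. Its groups overlapped, and the 95% Wilson intervals of the siLarp1 libraries ran from 0.715 to 10.7%. At 48 h it had 3.23 and 3.09% in siCtl and 3.88 and 2.5% in siLarp1. The differences in log2 odds were 0.53 (-0.66 to 1.71) and 0.06 (-1.81 to 1.94), so that a difference of the size seen in RP mRNAs was not detectable at this depth. Eef1g had 2.34, 2.48 and 2.44% in siCtl at 24 h and 3.08, 2.47 and 3.36% in siLarp1, of which 1 library lay within the siCtl range. At 48 h it had 3.64 and 3.44% in siCtl and 2.77 and 4.0% in siLarp1. Its differences were 0.31 (-0.39 to 1.01) and -0.09 (-1.07 to 0.89), neither past the threshold.

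Eef2, the translocation factor, was the only member with a lower mean in siLarp1 at 24 h. Its siCtl libraries had 2.01, 1.53 and 2.03% of reads under 30 nt and its siLarp1 libraries 0.513, 2.2 and 0.862%, which rest on 1, 6 and 2 reads. The groups overlapped (exact permutation p = 0.4), and the difference in log2 odds was -0.53 (-1.64 to 0.58). With 1 library left out in turn it ran from -1.41 (without siLarp1 library 21) to -0.23 (without siLarp1 library 19). At 48 h the 4 libraries lay between 2.13 and 2.59%, and the difference was 0.18 (-0.99 to 1.35). The logistic model was also used to ask whether the siLarp1 effect on this share differed between the times, and it called 0 of 1261 genes (0%). Before adjustment, its p was below 0.05 for 43 genes whose effect was greater at 48 h and for 24 whose effect was smaller. None of these was a member. Over both times, with treatment permuted within each time, Eef1b2 had a mean difference of 1.10 percentage points (exact p = 0.0833, adjusted p = 0.673). Of 1267 genes, 0 were called (0%, with 88 at an unadjusted p under 0.05). The smallest p this permutation test allows is 0.0167, so a gene could be called only if a large part of the genes shared it.

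**Figure D3:**
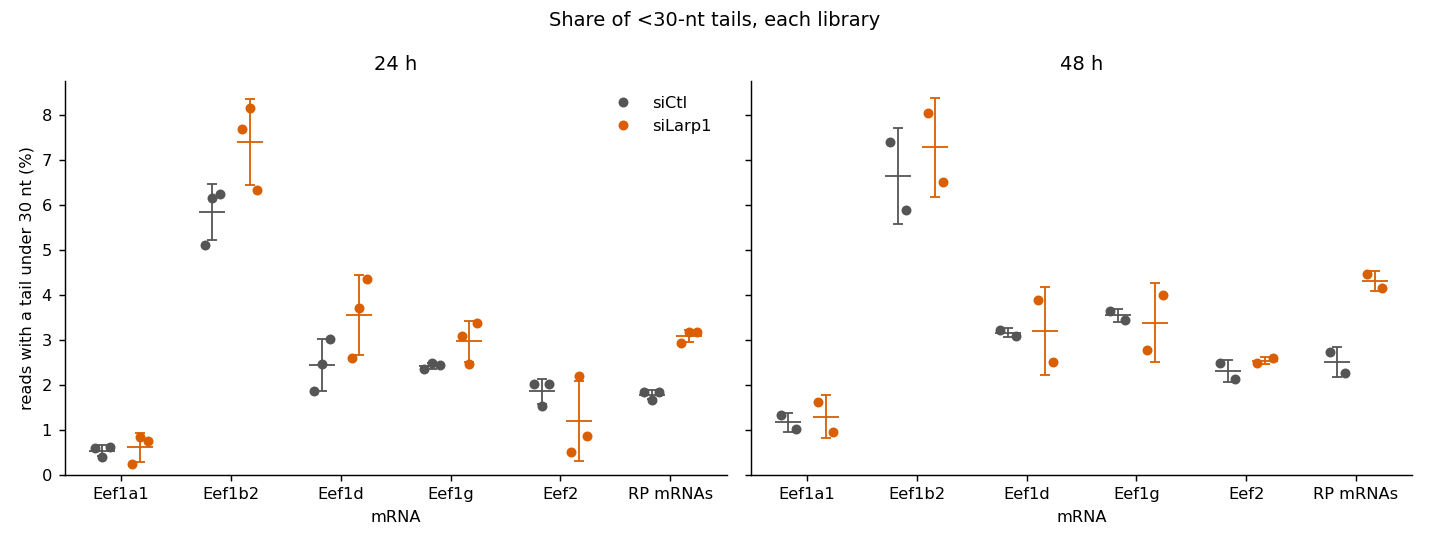
Reads with a tail under 30 nt (%) in each library (points), with the group mean and SD, for the 5 mRNAs and pooled RP mRNAs at 24 h and 48 h. Pooled RP mRNAs separate at both times, whereas among the members only Eef1b2 at 24 h does.

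The members were next compared with RP mRNAs inside each library. Pooled RP mRNAs had 1.78 ± 0.102% of tails under 30 nt in siCtl and 3.09 ± 0.136% in siLarp1 at 24 h (SD, n = 3 each), and 2.5 ± 0.331% and 4.31 ± 0.227% at 48 h (n = 2 each). The groups did not overlap at either time. The log2 odds of a short tail in Eef1g less those in RP mRNAs were 0.41, 0.62 and 0.44 in siCtl and 0.17, -0.27 and 0.15 in siLarp1 at 24 h, and 0.50 and 0.66 against -0.63 and 0.02 at 48 h. Every siLarp1 library was thus below every siCtl library of its time. Eef2 had 0.20, -0.05 and 0.19 in siCtl against -1.97, -0.43 and -1.59 in siLarp1 at 24 h, and -0.01 and -0.02 against -0.78 and -0.59 at 48 h. For Eef1b2 the difference was 1.55, 1.97 and 1.84 against 1.5, 1.47 and 1.08, and 1.54 and 1.46 against 0.93 and 0.72. It too was lower in every siLarp1 library.

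Averaged over both times, siLarp1 minus siCtl of this difference from RP mRNAs was -0.72 in Eef1a1, -0.56 in Eef1b2, -0.51 in Eef1d, -0.68 in Eef1g and -1.06 in Eef2 on the log2 odds scale. With treatment permuted within each time (120 arrangements), exact p was 0.0167 for Eef1b2, Eef1g and Eef2, the smallest possible, 0.05 for Eef1a1 and 0.0833 for Eef1d. Adjusted over 1188 non-RP genes these became 0.421 to 0.577, and 0 genes passed (0%), with 79 lower and 5 higher at an unadjusted p under 0.05. Since p could not fall below 0.0167, a gene could pass only if a large part of the 1188 genes shared that value. The count of 0 therefore decides little. The median over those genes was -0.42, so that a negative value relative to RP mRNAs was common among all mRNAs, and whether the members differ from that median was not tested. Groups did not overlap for 3 members at 24 h (Eef1b2, Eef1g and Eef2) and for 5 at 48 h, against 12.7% and 44.5% of the 1188 genes. With each library left out in turn or under other choices of reads (13 alternatives at 24 h and 11 at 48 h), Eef1a1 lay between -1.01 and -0.23 at 24 h and between -1.04 and -0.39 at 48 h, and Eef1b2 between -0.56 and -0.30 and between -0.85 and -0.52. Eef1d lay between -0.47 and -0.0025 at 24 h, which reaches nearly 0, and between -2.09 and -0.09 at 48 h. Eef1g ran from -0.88 to -0.25 and from -1.22 to 0.0054, the last with reads of all quality tags. Eef2 ran from -1.90 to -0.36 and from -0.77 to 0.55, and was above 0 at 48 h with a barcode confidence of at least 0.9 (0.44) and with reads at the most common 5′ end (0.55). Only 2.98 to 12.1% of Eef2 reads per library reached that end at 48 h, so the value of 0.55 rests on few reads.

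**Figure D4:**
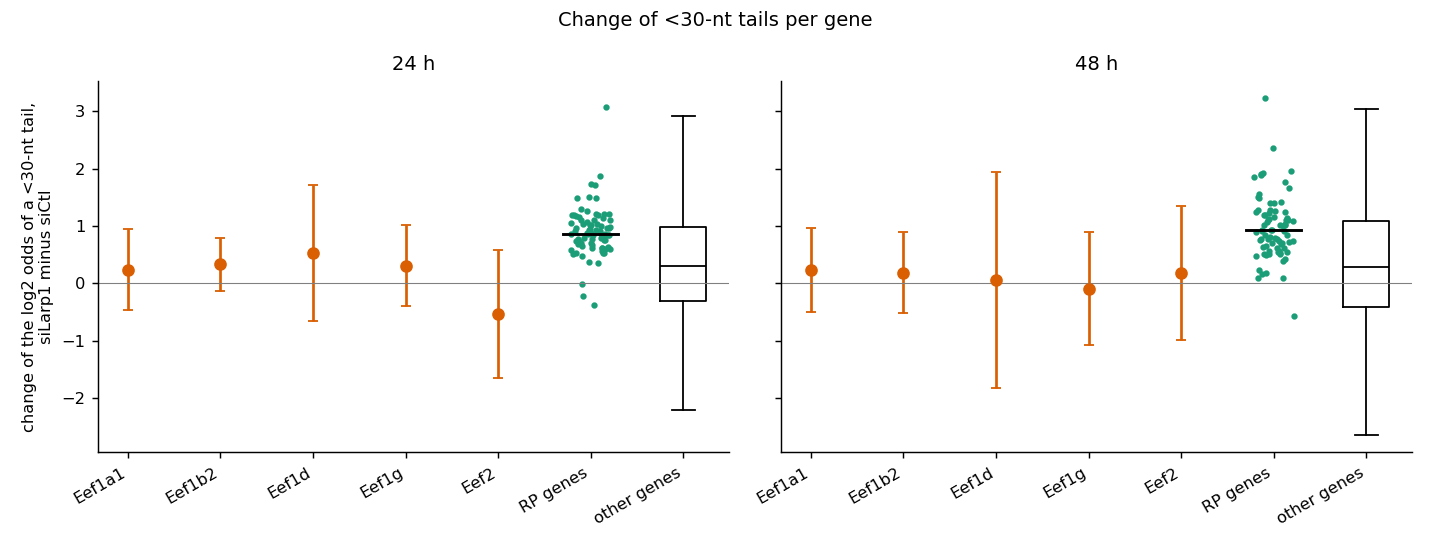
Difference in the log2 odds of a tail under 30 nt (siLarp1 minus siCtl) at 24 h and 48 h, for each member with its 95% interval, for RP genes (points, bar at the median) and for all other genes (box of quartiles, whiskers to 1.5 times the box). Genes without a finite estimate are not drawn, which were 209 of 1388 and 117 of 823. The 5 members lie between -0.53 and 0.53, below the RP medians of 0.87 and 0.92, with intervals that include 0. The intervals of Eef1a1, Eef1d and Eef1g at 24 h and of Eef1a1, Eef1d and Eef2 at 48 h also include the RP median.

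Tails of 30 to 90 nt, around the ~60-nt class of the study, made up 27.8 to 41.0% of Eef1a1 reads per library and 33.7 to 55.5% of the reads of the other 4 members. The share was lower in siLarp1 for 4 members at both times and higher for Eef1a1. Genes at large also leaned lower, with a median difference in log2 odds of -0.06 at 24 h and -0.18 at 48 h. No member passed the threshold, against 6 of 1433 genes at 24 h (0.419%) and 0 of 843 at 48 h (0%). At an unadjusted p under 0.05, 35 genes were higher and 64 lower at 24 h, and 14 higher and 63 lower at 48 h. Eef1d had 50.7, 49.6 and 47.3% in siCtl at 24 h and 45.5, 44.4 and 33.7% in siLarp1, which did not overlap. Its difference in log2 odds was -0.48 ± 0.22 (SE, adjusted p = 0.624). Eef1g had 45.3, 39.5 and 43.1% against 38.3, 38.5 and 36.1%, also without overlap, a difference of -0.30 ± 0.13 (adjusted p = 0.510). Non-overlap was seen in 13.7% of genes at 24 h.

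At 48 h the 30 to 90-nt share did not overlap for Eef1b2 and Eef2. Eef1b2 had 51.8 and 51.3% in siCtl and 46.6 and 44.3% in siLarp1 (-0.34 ± 0.18, adjusted p = 0.549). Eef2 had 54.7 and 44.5% in siCtl and 37.6 and 42.7% in siLarp1 (-0.45 ± 0.18, adjusted p = 0.371). Non-overlap was seen in 38.3% of 843 genes at 48 h. Over both times, the stratified exact permutation test gave p = 0.05 for Eef1b2, the lowest of the members, which became 0.603 over 1267 genes (0 called, 0%, with 74 unadjusted). Relative to RP mRNAs the 30 to 90-nt class of Eef1b2 had a mean difference of -0.25 (stratified exact p = 0.0167, adjusted p = 0.560, with 0 of 1188 called). The other members had 0.08 (Eef1a1) and -0.33 to -0.30, with a median of -0.15 over all 1188 genes. Under the same alternatives Eef1b2 and Eef2 stayed below 0 at both times. The sign turned at 48 h for Eef1d under 5 of 11 alternatives (up to 0.16) and for Eef1g under 1 (0.05), and for Eef1a1 under 1 at each time (-0.04 at 24 h and -0.01 at 48 h). Groups relative to RP mRNAs did not overlap for Eef1b2, Eef1d and Eef1g at 24 h and for Eef1b2 at 48 h, against 15.2% and 35.9% of those genes. The effect differed between times in 0 of 1267 genes by the logistic model (0%, with 80 at an unadjusted p under 0.05).

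No member passed the threshold for the median tail. Eef1d had medians of 87.5, 86.0 and 89.8 nt in siCtl at 24 h and 91.9, 91.1 and 106 nt in siLarp1. Each siLarp1 library was longer than each siCtl one. The limma difference was 8.81 ± 5.06 nt (SE, adjusted p = 0.720), and 3.47 nt without siLarp1 library 22. Eef1g had 94.0, 99.8 and 96.5 nt against 98.4, 103 and 105 nt, which overlapped. Eef1a1 had 112, 115 and 110 nt against 109, 109 and 113 nt. The group means were 86.6 ± 2.47 and 86.7 ± 5.31 nt in Eef1b2 and 99.4 ± 2.61 and 100.6 ± 5.26 nt in Eef2 (SD, n = 3 each). At 24 h only Eef1d did not overlap, against 12.6% of 1433 genes.

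At 48 h Eef2 had medians of 83.5 and 93.6 nt in siCtl and 106 and 96.0 nt in siLarp1. The difference of 10.9 ± 4.37 nt (SE) had a limma p of 0.0258 and an adjusted p of 0.735. It was 5.47 nt without siLarp1 library 24 (adjusted p = 0.683), 15.4 nt without siLarp1 library 25 (adjusted p = 0.0559) and 17.9 nt without siCtl library 25 (adjusted p = 0.978). Eef1b2 had 79.4 and 79.4 nt in siCtl and 83.4 and 88.2 nt in siLarp1, a difference of 6.21 ± 4.11 nt (adjusted p = 0.885). These were the 2 members without overlap at 48 h, against 35.2% of 843 genes. Eef1a1, Eef1d and Eef1g overlapped, with differences of -2.5, 2.51 and 5.16 nt. By limma 0 of 1433 and 0 of 843 genes were called (0%), with 86 and 54 at an unadjusted p under 0.05. Over both times the stratified exact permutation test called 0 of 1267 genes (66 unadjusted), and the test between times 0 of 1267 (55 unadjusted).

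The tail measures were repeated on single transcripts. Of 1330 transcripts at 24 h, 25 were called for the <30-nt class (1.88%), and 3 of 780 at 48 h (0.385%). For the median tail 2 of 1379 (0.145%) and 0 of 797 (0%) were called. None was a transcript of a member. The main transcript of Eef1b2 had differences of 0.25 and 0.13 in log2 odds of a short tail at 24 h and 48 h, and that of Eef1g 0.28 and -0.13.

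Log2 fold changes in abundance were negative for all 5 members at 24 h and for 4 of 5 at 48 h, and none passed the threshold. The median over all tested genes was 0.009 at 24 h and 0.025 at 48 h. Of the 79 RP genes, 36 were above 0 at 24 h (median -0.003) and 13 at 48 h (median -0.14). Negative values at 48 h were thus common among RP genes too. By limma voom 0 of 4800 genes at 24 h and 0 of 2704 at 48 h were called (0%), with 270 and 135 at an unadjusted p under 0.05. Eef1a1 had 11100, 11840 and 9870 RPM in siCtl at 24 h and 10454, 10751 and 9283 RPM in siLarp1. The groups overlapped, and the log2 fold change was -0.12 ± 0.05 (SE, adjusted p = 0.827). This call turned on single choices. It passed without siCtl library 22 (-0.19, adjusted p = 0.0116), with no filter on low reads (-0.12, adjusted p = 4.17e-06), and with the library number as a replicate block (-0.11, adjusted p = 9.57e-07). Libraries of 1 number at 24 h also carried the same barcode (1, 2 and 3 for libraries 19, 21 and 22), so that number and barcode cannot be told apart in that block. At 48 h Eef1a1 had 9413 and 11041 RPM in siCtl and 9502 and 10510 RPM in siLarp1.

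Eef1g was lower in siLarp1 at 48 h, with 1783 and 1866 RPM against 2191 and 2440 RPM in siCtl. These groups did not overlap, against 34.1% of 2704 genes at 48 h. The log2 fold change of Eef1g at 48 h was -0.36 ± 0.11 (SE), with a limma p of 0.00404 and an adjusted p of 0.878. At 24 h it had 2064, 2344 and 2227 RPM in siCtl and 1894, 2116 and 2082 RPM in siLarp1, which overlapped (-0.12 ± 0.08). Over both times its mean difference of -0.23 in log2(RPM + 1) had a stratified exact p of 0.05, or 0.576 adjusted over 1267 genes, of which 0 were called (91 unadjusted). Eef2 had 1783 and 2630 RPM in siCtl and 1740 and 1924 RPM in siLarp1 at 48 h, a log2 fold change of -0.31 ± 0.14 (adjusted p = 0.878). It was 0.03 without siCtl library 25 and -0.53 without siCtl library 24 (adjusted p = 0.0572). Eef1b2 stayed within 1839 to 2280 RPM in all 10 libraries.

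Eef1d was on opposite sides of siCtl at the 2 times. At 24 h it had 742, 709 and 784 RPM in siCtl and 642, 606 and 586 RPM in siLarp1, and at 48 h 550 and 543 RPM against 636 and 664 RPM. Neither comparison overlapped, against 10.9% of 4800 genes at 24 h and 34.1% of 2704 at 48 h. The log2 fold changes were -0.29 ± 0.12 and 0.25 ± 0.17 (SE, adjusted p = 0.827 and 0.878). Their difference of 0.54 ± 0.21 had a limma p of 0.0144 and an adjusted p of 0.970, and 0 of 5858 genes passed (0%, with 255 at an unadjusted p under 0.05).

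**Figure D5:**
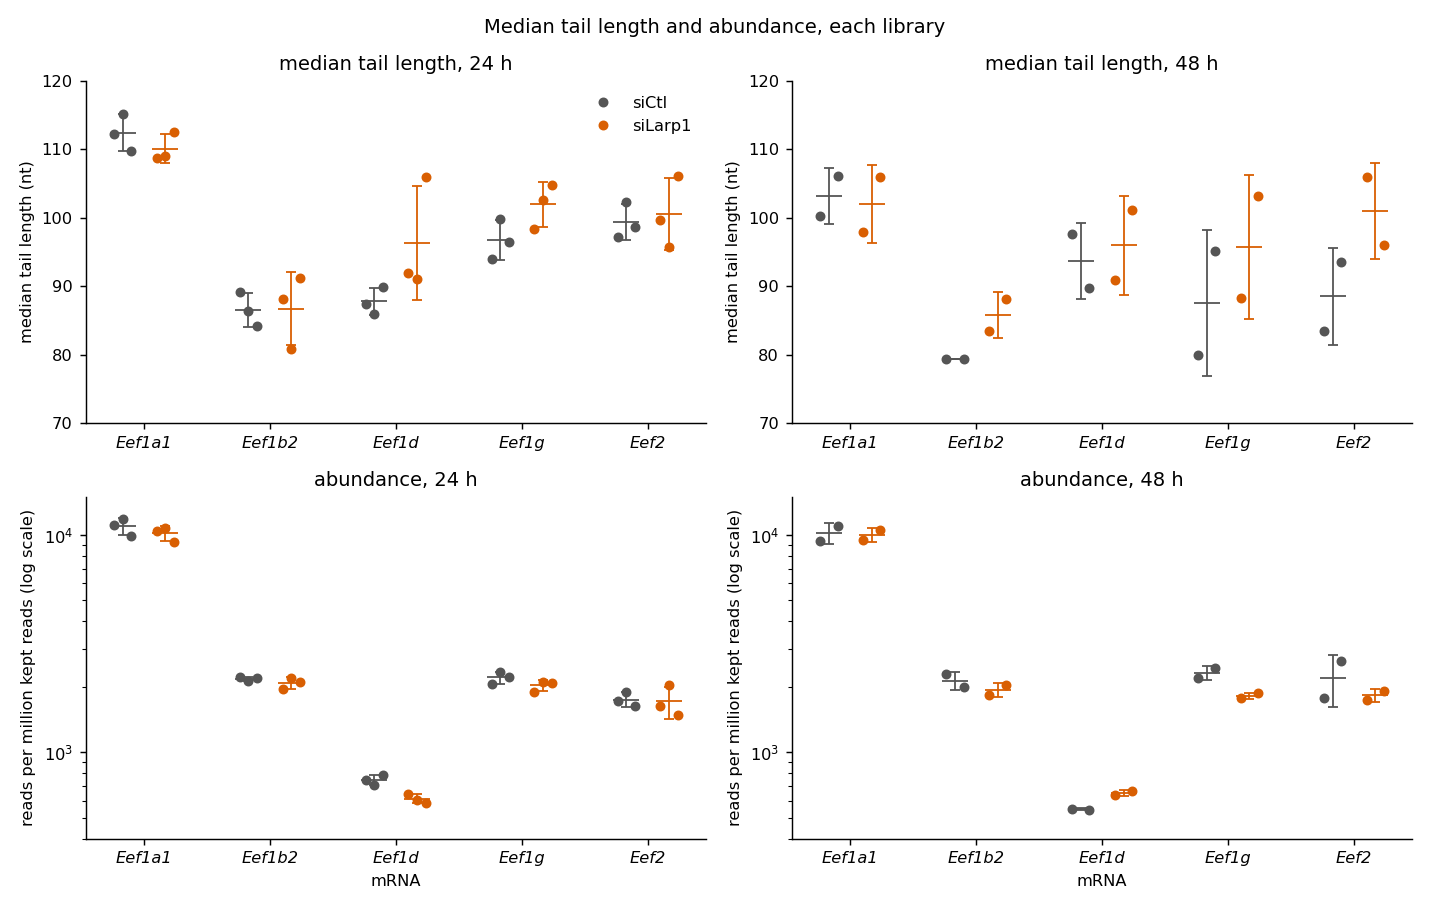
Median tail length (nt, top; the axis starts at 70 nt) and abundance (RPM, log axis, bottom) of the 5 mRNAs in each library (points), with group mean and SD. The level of Eef1a1 is above that of each other member in all libraries, and Eef1d is lower in siLarp1 at 24 h and higher at 48 h.

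Members were also described by how their median tail moved over the 10 libraries, which differ in time, pool and depth as well as treatment. The 3 genes with the most similar pattern among 562 were Rpl4, Rpl13 and Rps20 for Eef1a1 (Pearson r of 0.97, 0.93 and 0.93), and Rps27l, Rpl7a and Banf1 for Eef1g (0.99, 0.97 and 0.92). They were Ubl5, Gars and Atp5j for Eef1b2 (0.96, 0.94 and 0.91), Ube2d3, Rpl23 and Rps14 for Eef2 (0.90, 0.87 and 0.83), and Mrpl20, Gng5 and Hspa8 for Eef1d (0.85, 0.81 and 0.79). Between members, r was 0.70 for Eef1a1 with Eef1g and 0.62 for Eef1b2 with Eef2, and lowest for Eef1a1 with Eef1d (-0.15).

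Other genes of the elongation cycle were measured beside the members. These lists held 18 partners of eEF1 (17 with reads), 11 genes that control eEF2, 9 genes of eIF5A and termination, and 8 mitochondrial elongation genes. Enough reads for the tail tests were present for 6, 2, 4 and 1 of them at 24 h and for 4, 1, 3 and 0 at 48 h. Abundance was tested for 13, 7, 7 and 4 at 24 h and for 11, 2, 6 and 2 at 48 h. None of the genes tested was called, and the others were not tested. Tpt1, a TOP mRNA whose protein binds eEF1B, was the most read partner. It had 83 of 2700 reads under 30 nt in siCtl and 45 of 990 in siLarp1 at 24 h, and 23 of 661 against 45 of 627 at 48 h. Its differences in log2 odds were 0.59 ± 0.28 and 1.10 ± 0.38 (SE, adjusted p = 0.446 and 0.215). Kars, the lysyl-tRNA synthetase, had 0.98 ± 0.71 and -0.42 ± 0.75, and Aimp1, a scaffold of the synthetase complex, by 0.56 ± 0.63 and 1.28 ± 0.81. None of these passed.

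Eif5a, which helps ribosomes through difficult stretches, had 6167 reads and, like Eef1a1, few short tails, with 21 of 3250 reads in siCtl and 8 of 1245 in siLarp1 at 24 h. Its difference in log2 odds was -0.01 ± 0.65 and, at 48 h, 0.61 ± 0.66. The release factor Etf1 had 12 of 279 against 3 of 107 reads and, at 48 h, 1 of 81 against 9 of 80 (adjusted p = 0.258). Abce1, which recycles ribosomes, had 3 of 151 against 1 of 66 and 6 of 55 against 1 of 52. Among genes that control eEF2, the phosphatase subunit Ppp2ca had 12 of 429 against 7 of 152 short-tailed reads and 7 of 125 against 7 of 127. The diphthamide genes Dph3 and Dph1 had 278 and 95 reads in all. The mitochondrial factors Tufm, Tsfm and Gfm1 had 289, 160 and 111 reads, and the <30-nt test was run on Tufm alone, at 24 h (1.24 ± 1.21, adjusted p = 0.784).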

How the data were processed

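Poly(A) RNA from 10 P19 libraries was sequenced directly on Nanopore flow cells. The authors called bases with Guppy, assigned barcodes with Deeplexicon, aligned reads with Minimap2 (2.20 in the submitters' processing notes) to GENCODE mouse transcripts (GRCm38/mm10), and estimated tails in nt with Nanopolish. The deposited table holds 1 alignment per line, with a barcode confidence (a fraction from 0 to 1, set by the authors' demultiplexing), a mapping quality score given by the authors' aligner, and a tail length. Transcripts of the mitochondrial genome (121342 alignments of any tag) and annotated pseudogenes (16156) were left out. Of 2652217 deposited alignments, 2042110 on the other mRNAs with the tag PASS were kept and tallied per gene and library.

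Members and gene lists were chosen with earlier results of these data known. The shares of tails under 30 nt and of 30 to 90 nt were tested with a quasi-binomial logistic model. Its spread was moderated by limma 3.58.1 (R 4.3.3) and was not allowed below counting error. Median tails were tested with limma weighted by reads, and abundance with limma voom. Tail tests required 100 reads and 10 per library, and abundance tests 30 reads. P-values were adjusted over all genes tested by the Benjamini-Hochberg method at 0.05. Two-sided exact permutation tests were run over libraries, within each time (smallest p 0.1 at 24 h and 0.333 at 48 h) or stratified over both (smallest p 0.0167). After adjustment, the stratified test could call a gene only if a large part of all genes shared that smallest p. Its counts of 0 therefore decide little. Log2 odds of single libraries used a prior of 0.5. Intervals on single libraries are 95% Wilson intervals. Named were the members, the 3 genes most like each in median tail among genes with at least 500 reads, and the 3 most read genes of each other list. Scripts were tested on simulated data.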

Additional observations from a re-analysis of the deposited data

Results flagged for a closer look

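The abundance of Eef1d was lower in every siLarp1 library than in every siCtl library at 24 h and higher in every one at 48 h, so that the difference between group means moved by 237 RPM from 24 h to 48 h. The difference between the times was 0.54 ± 0.21 (SE) in log2 fold change, with a limma p of 0.0144 and an adjusted p of 0.970. The 24 h groups came from separate sequencing pools and differed in depth, and their part in this result was not tested.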

How the results depend on the processing

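Members stayed uncalled under every alternative except Eef1a1 abundance at 24 h. Of the alternatives for single members, 168 of 188 for the <30-nt share, 170 of 178 for the 30 to 90-nt share, 165 of 178 for the median tail and 181 of 190 for abundance kept direction and side of the threshold. The cause of the differences below was not tested. Restricting reads by their 3′ or 5′ end was chosen after seeing the data. Counts of 2 to 15 short-tailed reads per library in Eef1d, Eef1g and Eef2 at 48 h, and 2 libraries per group, limit what could be detected there.

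For the <30-nt share (log2 odds), the sign turned at 24 h for Eef1g with reads at the most common 5′ end (-0.12) and for Eef1d under 25 nt (-0.15). At 48 h it turned for Eef1g with all quality tags (0.64), barcode confidence of at least 0.9 (0.27) and under 25 nt (0.94), and for Eef2 under 35 nt (-0.40). For Eef1d at 48 h it turned with barcode confidence (-0.27), mapping quality of at least 10 (-1.50), the most read transcript (-0.66), the most common 3′ end (-0.62) and 5′ end (-1.46), and under 35 nt (-0.21). Other turns were Eef2 at 24 h for tails of 45 to 75 nt (0.0018), Eef1b2 at 24 h by mean tail (-0.0253 nt) and mean log2 tail (-0.0145), Eef1d median at 48 h on the most read transcript (-0.408 nt), and Eef2 abundance at 48 h at the 5′ end (0.28).

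Leaving out 1 library at a time gave these ranges. The <30-nt log2 odds were -1.41 to -0.23 (Eef2, 24 h), -0.0425 to 0.58 (Eef1a1, 24 h), -0.25 to 0.54 (Eef1a1, 48 h), -0.0085 to 0.34 (Eef1b2, 48 h), -0.34 to 0.32 (Eef1d, 48 h) and -0.36 to 0.19 (Eef1g, 48 h). The 30 to 90-nt log2 odds were -0.19 to 0.0686 (Eef2, 24 h), -0.13 to 0.25 (Eef1a1, 48 h), -0.31 to 0.0406 (Eef1d, 48 h) and -0.67 to 0.0327 (Eef1g, 48 h). Median tails in nt were 5.47 to 17.9 (Eef2, 48 h), -2.18 to 3.67 (Eef1b2, 24 h), -2.16 to 3.66 (Eef2, 24 h), -6.13 to 1.92 (Eef1a1, 48 h), -2.33 to 8.26 (Eef1d, 48 h) and -1.33 to 14.8 (Eef1g, 48 h). Abundance in log2 was -0.19 to -0.0393 (Eef1a1, 24 h), -0.17 to 0.0776 (Eef2, 24 h), -0.16 to 0.0771 (Eef1a1, 48 h) and -0.53 to 0.0276 (Eef2, 48 h). Counts of genes called were 0 to 20 and 0 to 0 for the <30-nt share at 24 h and 48 h, 0 to 13 and 0 to 16 for 30 to 90 nt, 0 to 2 and 0 to 6 for the median, and 0 to 8 and 0 to 1 for abundance.

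Genes called for the <30-nt share at 24 h (28) numbered 9 with all quality tags, 16 with mapping quality, 17 on the most read transcript, 43 with all 10 libraries in 1 fit, 46 under 35 nt and 95 by limma on log2 odds. At 48 h (7) they were 39 with all tags, 0 with barcode confidence, 3 with mapping quality, 3 on the most read transcript, 12 at the 5′ end, 18 with at least 30 reads, 0 under 25 nt, 20 under 35 nt and 35 by limma on log2 odds. For the 30 to 90-nt share they were 3 with mapping quality and 1 for 45 to 75 nt at 24 h (6), and 5 for 45 to 75 nt at 48 h (0). For the median (0) they were 1 on the most read transcript, 2 at the 3′ end, 2 with all libraries and 2 by mean log2 tail at 24 h, and 1 with all tags, 1 with at least 30 reads and 1 by mean tail at 48 h. For abundance (0) they were 2 with all tags, 1 at the 3′ end and 15 with no filter at 24 h, and 3 with all tags, 1 with mapping quality and 17 with no filter at 48 h. Eef1a1 abundance at 24 h was called with no filter (-0.12).

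At 24 h same-number libraries share a number and a barcode (1, 2 and 3), and at 48 h each library has its own barcode. Same-number correlations of deviations at 24 h were 0.024, 0.157 and 0.121 for median tails and 0.094, 0.352 and 0.381 for abundance, where each library correlated best with its own number. With the library number as a replicate block, genes called were 0 and 0 for the <30-nt share, 4 for the median at 24 h, and 20 and 4 for abundance, including Eef1a1 at 24 h (-0.11). Eef1d in the <30-nt class at 48 h was -0.0030.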
